A study of Mus musculus with 8 samples.

Results

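Chondroitin sulfate and hyaluronan are long sugar chains of cartilage matrix, and 9 mouse genes for the enzymes and the sulfate transporter that make them were followed across 8 RNA sequencing libraries of rib chondrocytes. The 9 genes are Ugdh, Slc26a2, Papss2, Xylt1, Csgalnact1, Chsy1, Chst11, Chst3 and Has2. They were taken by gene symbol from the authors' table of 18501 genes, where each has 1 row, and all 9 passed the filter on low counts that left 14359 genes for testing. Chondrocytes came from rib cartilage of 10 day-old CD1 mice, a laboratory strain, and were digested out with collagenase II overnight, filtered and plated before RNA was taken. Mir140 is the cartilage microRNA gene, from which a 5p and a 3p strand are cut, and the study set up 2 mouse lines with a different Mir140 mutation each. CT mutants carry a C>T base change, and CT wild types are their controls. CG mutants carry a mutation in the seed region of the 3p strand, and CG wild types are their controls. Both mutants are described by the submitters as overexpressing the 5p strand, and each of the 4 groups has 2 libraries. The labels give neither the zygosity nor the position of the C>T change, and whether 2 libraries of 1 group came from separate animals or cultures is not stated. Counts of the Y-linked gene Ddx3y were 2 and 2511 in CG wild types, 3512 and 30 in CT mutants and 3669 and 10 in CT wild types. The 2 libraries of each of these groups were therefore not repeats of 1 RNA sample. Ddx3y does not settle this for the 2 CG mutant libraries, with 2231 and 2360. Over all genes, however, the counts of these 2 libraries differed by a chi-square per degree of freedom of 57.7. The pairs of the other groups gave 20.4 in CG wild types, 21.1 in CT mutants and 28.2 in CT wild types. The CG mutant libraries were thus no closer than libraries of different RNA samples. Whether the spread behind the p-values is that between animals is not stated. The time between plating and RNA extraction is not stated either.

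Cartilage resists compression because its proteoglycans, chiefly aggrecan, carry many chondroitin sulfate chains whose sulfate groups hold water, and because aggrecan is anchored along hyaluronan. A chondroitin sulfate chain is started on a serine of a core protein, extended by alternating glucuronic acid and N-acetylgalactosamine, and then sulfated from the donor PAPS, while hyaluronan is spun out at the plasma membrane and is neither sulfated nor bound to a core protein. Loss of sulfate uptake, of PAPS synthesis or of chondroitin sulfation causes skeletal dysplasias in humans and mice.

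Total counts ran from 26536868 to 28678641 per library. The first principal component of log2 CPM, holding 64.5% of the variance, separated the lines. On the second component (12.2%), CG mutant replicate 1 scored 47.0 and CG mutant replicate 2 scored -8.36. All 12 chondrocyte markers, among them Col2a1, Acan and Sox9, were detected in all 8 libraries. So were all the fibroblast, endothelial and leukocyte markers listed below, so detection alone does not establish the cell type. The summed level of the chondrocyte markers was 40622 to 41175 CPM in CT mutants and 50623 to 60381 CPM in CT wild types. It was 31275 to 53821 CPM in CG mutants, with replicate 1 at the top, and 32211 to 33237 CPM in CG wild types. For each of 4 lists of markers of other cells, every CT library was above every CG library in summed level, while libraries of 1 line also differed among themselves. Single markers did not all follow the sums, and Dpt, Thy1, Hbb-bs, Hbb-bt, Csf1r, Adgre1 and Fcer1g overlapped between the lines. In CT wild types against CG wild types, 5 of 7 fibroblast and 4 of 6 erythroid markers had a log2 fold change above 0. All 5 endothelial and all 8 macrophage and leukocyte markers were above 0 in that comparison. At an edgeR adjusted p under 0.05, 2 fibroblast, 4 erythroid, 3 endothelial and 4 macrophage and leukocyte markers were higher, beside 17% of all genes. The 7 fibroblast and perichondrium markers summed to 2193 to 3052 CPM in the CT line and 362 to 1151 CPM in the CG line, with CG mutant replicate 1 at 362 CPM. The 6 erythroid markers summed to 968 to 2532 CPM in the CT line and 2.95 to 16.8 CPM in the CG line, where Hbb-b1 was at 0 in 2 wild type libraries. The 5 endothelial markers summed to 52.5 to 98.1 CPM in the CT line and 10.9 to 33.2 CPM in the CG line. The 8 macrophage and leukocyte markers summed to 54.5 to 112 CPM in the CT line and 15.7 to 45.1 CPM in the CG line. The line and its batch of animals or preparation cannot be told apart, and the part of other cells in the line differences below was not tested. In bulk RNA, fewer cells of a type and less RNA per cell cannot be told apart.

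Set on a scale per transcript length, the 9 genes covered a wide range of levels in these cultures. Ugdh, which oxidises UDP-glucose to the UDP-glucuronic acid that both chains are built from, was the highest in every library, at a mean of 211 FPKM over the 8 libraries and a range of 176 to 243 FPKM. Xylt1 followed at 97.9 FPKM with a range of 61.2 to 146, Papss2 at 85.9 FPKM with a range of 45.9 to 163, and Chst11 at 83.6 FPKM with a range of 70.2 to 113. These ranges overlap, and the order of the 3 genes differed between libraries. Chsy1 came next in every library, with a mean of 43.0 FPKM and a range of 34.4 to 55.1, and Has2 after it, with a mean of 17.4 FPKM and a range of 11.5 to 24.3. Slc26a2, at a mean of 10.1 FPKM and a range of 7.72 to 13.0, and Csgalnact1, at a mean of 7.94 FPKM and a range of 5.89 to 11.9, overlapped. Chst3 was the lowest in every library, at a mean of 1.09 FPKM and a range of 0.40 to 1.73, on 67 to 295 counts per library. The order of levels itself followed the line. Chst11 ranked above Papss2 in all 4 CT libraries and below it in all 4 CG libraries. Slc26a2 ranked below Csgalnact1 in all 4 CT libraries and above it in all 4 CG libraries.

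**Figure D1:**
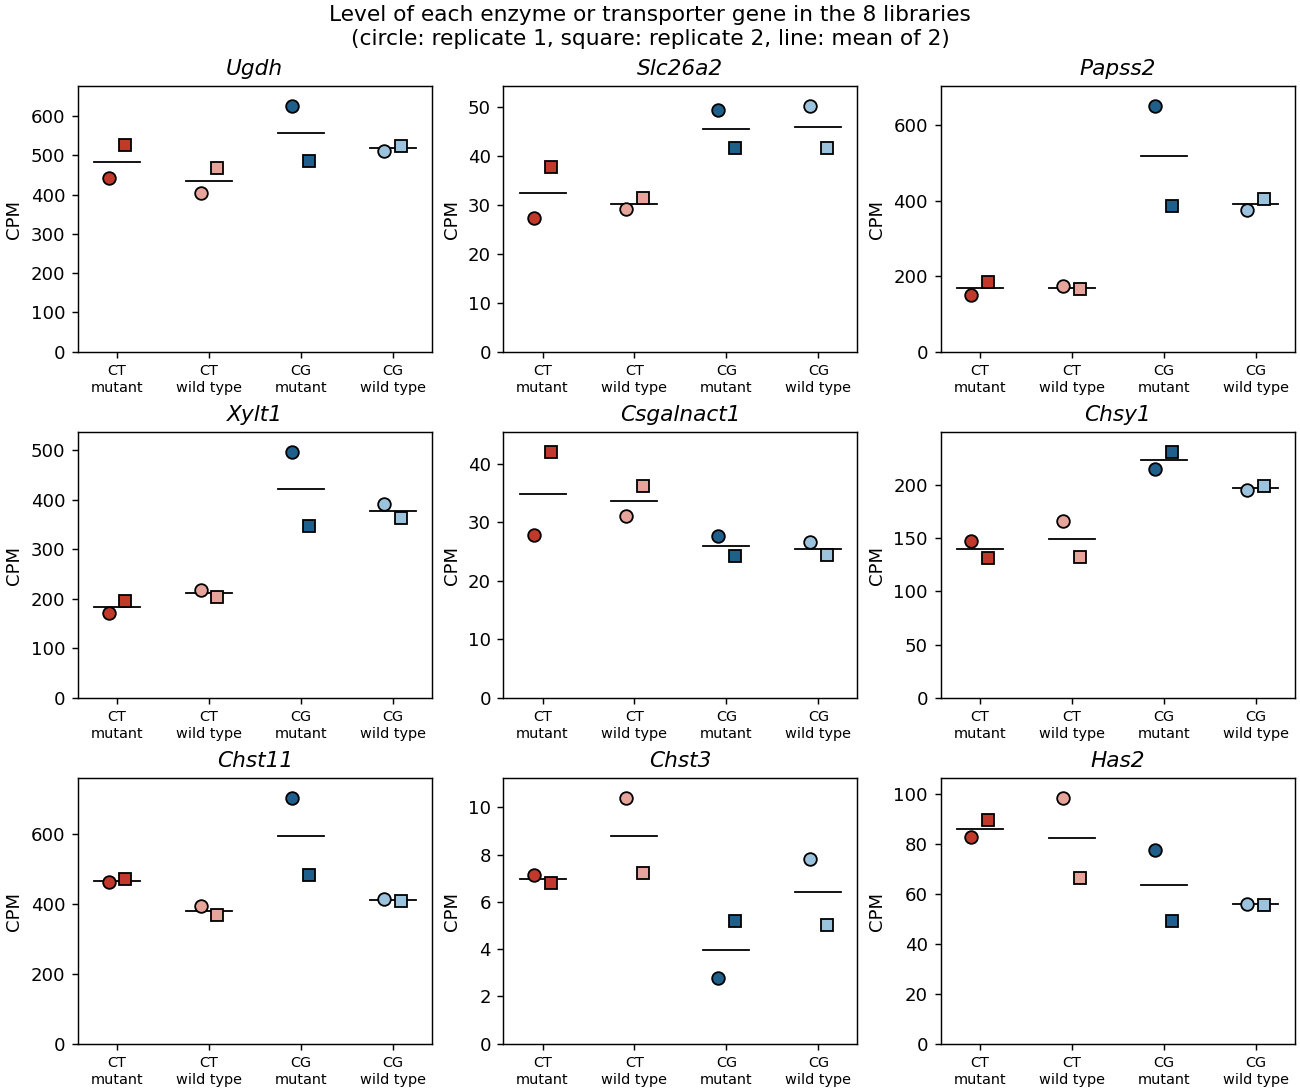
Level of the 9 genes in CPM (counts scaled to library size, vertical axes, each from 0) in the 4 groups, with a circle for replicate 1, a square for replicate 2 and a line at the mean. Papss2, Xylt1, Chsy1 and Slc26a2 are lower in all 4 CT libraries than in any CG library, and CG mutant replicate 1 is the top library for Papss2, Xylt1, Chst11 and Ugdh.

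The first question of the design was whether each Mir140 mutation changed these genes relative to its own controls. None of the 9 passed the test in either line. The nearest was Chst11, the sulfotransferase gene for chondroitin 4-sulfation, which was higher in both mutant libraries than in both wild types of each line, by 1.45-fold in CG and 1.23-fold in CT, and missed the threshold in both. Levels are given as counts scaled by TMM library sizes (CPM), effects as log2 fold changes of mutant over wild type with their standard error, and p-values come from edgeR's quasi-likelihood F test with Benjamini-Hochberg adjustment over all genes, at a threshold of 0.05. In the CG line 0 of 9 genes passed, against 0.00696% of all genes tested, and 1 of 9 had an unadjusted p under 0.05, against 11.4%. In the CT line 0 of 9 passed, against 0.00696%, and 0 of 9 had an unadjusted p under 0.05, against 5.11%. DESeq2 also called 0 of the 9 in each line, against 1.88% of genes in CG and 0.157% in CT. These backgrounds are so low that the counts of 0 do not set the 9 genes apart from the rest. The median effect of the 9 was 0.16 in CG, with 7 above 0, and 0.05 in CT, with 5 above 0, beside medians of 0.00 over all genes in both lines.

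**Figure D2:**
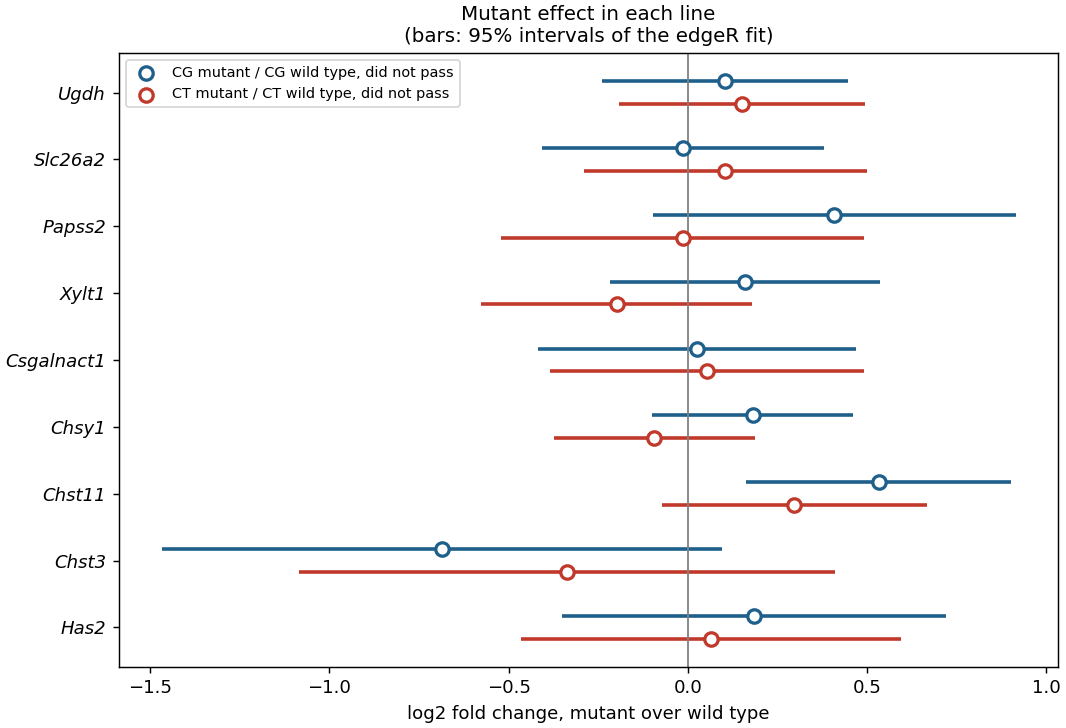
Mutant effect on each gene as log2 fold change of mutant over wild type (horizontal axis), in the CG line (blue) and the CT line (red), with 95% intervals of the edgeR fit as bars. No effect passed at an adjusted p of 0.05, and Chst11 in CG is the one interval that lies wholly above 0, from 0.16 to 0.90.

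Chst11 transfers sulfate to carbon 4 of N-acetylgalactosamine in chondroitin. Its level was 703 and 484 CPM in CG mutants, against 413 and 408 CPM in CG wild types. In the CT line mutants had 464 and 469.7 CPM and their wild types 393 and 367 CPM. Both mutant libraries were above both wild types in each line, a pattern that 23.2% of genes showed in CG and 17.2% in CT. The log2 fold change was 0.53 ± 0.16 in CG (edgeR unadjusted p = 0.0106, adjusted p = 0.299) and 0.30 ± 0.16 in CT (edgeR adjusted p = 0.958). Averaged over the lines it was 0.41 ± 0.11, with a 95% interval of 0.15 to 0.68 and an edgeR adjusted p of 0.276. DESeq2 gave this mean effect an adjusted p of 0.0298, so the call turns on the tool. Without CG mutant replicate 2 the mean effect was 0.54 (edgeR adjusted p = 0.0177), and without CG mutant replicate 1 it was 0.26 (edgeR adjusted p = 0.374), and over all its alternatives the adjusted p ran from 0.0177 to 0.620. Without CG mutant replicate 1 the CG effect of Chst11 was 0.24 (edgeR adjusted p = 0.846), and without CG mutant replicate 2 it was 0.78 (edgeR adjusted p = 0.0122), the lowest of its 17 alternatives, which ran up to an adjusted p of 0.868.

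The 3p strand is the one whose seed the CG line alters, and it is printed here because a seed match to it lies in Chst11. The wild type strand, from RefSeq on GRCm38.p6, lies at chr8:107551288-107551308 on the plus strand, with the seed, bases 2 to 8, in capitals.
mmu-miR-140-3p: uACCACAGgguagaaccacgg
The match in the longest annotated 3′ UTR of Chst11 (GENCODE, GRCm38) starts at base 2550 of 4101, and the capitals mark the 7 letters complementary to the seed.
Chst11 site: ttgtcttccgtCTGTGGTccagtgctgtg
The motif searched was CTGTGGT on the transcript strand only. Of the 9 genes, 2 held it once each, Chst11 and Slc26a2, while 19.0% of 17423 genes held at least 1, with a median UTR of 1199 bases. The UTRs of the 9 run from 735 to 5958 bases, and a match is a description of letters only. In CG mutants against CG wild types, Slc26a2, the other gene with a match, had a log2 fold change of -0.01 ± 0.17 (edgeR adjusted p = 0.985).

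Chst3 places sulfate on carbon 6 of N-acetylgalactosamine, the other main position in chondroitin. Its level was 2.78 and 5.19 CPM in CG mutants, against 7.82 and 5.03 CPM in CG wild types. In the CT line it was 7.13 and 6.80 CPM in mutants, against 10.4 and 7.21 CPM in wild types. Groups overlapped in CG, and in CT both mutants were below both wild types, as for 16.3% of genes. The effects were -0.69 ± 0.34 in CG (edgeR adjusted p = 0.491) and -0.34 ± 0.32 in CT (edgeR adjusted p = 0.976), with the widest intervals of the 9, from -1.47 to 0.10 in CG. Chst3 has the fewest counts of the 9, at 67 to 295 a library. Its 2 libraries of a group lay far apart in CG mutants, CG wild types and CT wild types, but not in CT mutants. Leaving out 1 library moved its effect between -1.20, without CG mutant replicate 2, and -0.31, without CG mutant replicate 1, in CG. In CT the effect was -0.58 when CT wild type replicate 2 was left out and -0.050 when replicate 1 of that group was.

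The genes that supply precursors did not pass in either mutant. Papss2, a synthase of the sulfate donor PAPS, had 651 and 385 CPM in CG mutants, against 375 and 405 CPM in CG wild types. In the CT line it had 151 and 185 CPM in mutants, against 173 and 166 CPM in wild types. CG mutant replicate 1 stood alone above the rest, and the groups overlapped in both lines. The effect was 0.41 ± 0.22 in CG (edgeR adjusted p = 0.528) and -0.01 ± 0.22 in CT (edgeR adjusted p = 0.998). Without CG mutant replicate 1 the CG effect was -0.02 (edgeR adjusted p = 0.998), and without CG mutant replicate 2 it was 0.74 (edgeR adjusted p = 0.0296), with adjusted p-values of 0.0296 to 0.998 over the alternatives. In the library that decides this value, the summed chondrocyte markers were the highest of the CG line and the fibroblast markers the lowest. Of that chondrocyte sum of 53821 CPM, Col2a1 alone gave 41094 CPM. Matn1, Hapln1, Snorc and Comp were not highest there among the CG libraries. The part of these markers in the Papss2 value was not tested. Ugdh had 626 and 486 CPM in CG mutants, against 512 and 523 CPM in CG wild types. In the CT line mutants had 442 and 525 CPM and their wild types 403 and 468 CPM. Its groups overlapped in both lines, and its effects were 0.10 ± 0.15 and 0.15 ± 0.15. Slc26a2, which carries sulfate into the cell, had 49.4 and 41.7 CPM in CG mutants, against 50.2 and 41.7 CPM in CG wild types. In CT it had 27.3 and 37.8 CPM in mutants, against 29.1 and 31.4 CPM in wild types. These groups also overlapped, and the 95% intervals of the Slc26a2 effect, -0.41 to 0.38 in CG and -0.29 to 0.50 in CT, leave room for changes of either sign.

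None of the 3 genes that start and lengthen the chain passed for either mutant effect. Xylt1, the xylosyltransferase that starts the linker on the core protein, had 496 and 346 CPM in CG mutants, against 391 and 363 CPM in CG wild types. Its CT levels were 171 and 196 CPM in mutants and 217 and 204 CPM in wild types. CT mutants lay below CT wild types in both libraries, while the CG groups overlapped, and the effects were 0.16 ± 0.16 in CG and -0.20 ± 0.16 in CT. Csgalnact1 adds the first N-acetylgalactosamine that commits the linker to chondroitin. It had 27.7 and 24.2 CPM in CG mutants, against 26.6 and 24.3 CPM in CG wild types. Its CT levels were 27.8 and 42.0 CPM in mutants and 31.0 and 36.2 CPM in wild types. Groups overlapped in both lines, with effects of 0.02 ± 0.19 and 0.05 ± 0.19. Chsy1, a chondroitin synthase that extends the chain, had 215 and 231 CPM in CG mutants, against 195 and 199 CPM in CG wild types. Its CT levels were 147 and 132 CPM in mutants and 166 and 132 CPM in wild types. Both CG mutants were above both CG wild types, at an effect of 0.18 ± 0.12 (edgeR adjusted p = 0.606), while the CT groups overlapped, at -0.09 ± 0.12.

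Has2, a hyaluronan synthase needed for skeletal growth in mice, had 77.6 and 49.2 CPM in CG mutants, against 56.1 and 55.4 CPM in CG wild types. Its CT levels were 82.6 and 89.4 CPM in mutants and 98.4 and 66.3 CPM in wild types. Groups overlapped in both lines, and the effects were 0.18 ± 0.23 in CG and 0.06 ± 0.23 in CT. Has2 is the only one of the 9 in the authors' deposited table of comparisons, which lists 2655 genes. In the authors' deposited table its log2 ratio was 0.18 in CG and 0.06 in CT, with a q-value no lower than 0.999 in either.

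Whether the mutations acted differently was asked with the difference of the effects, CG minus CT. None of the 9 passed for this difference. In counts, 0 of 9 passed in edgeR, against 0.0209% of genes, 0 of 9 had an unadjusted p under 0.05, against 4.78%, and DESeq2 called 0 of 9, against 0.206%. The largest differences were those of Papss2, at 0.42 ± 0.31 with a 95% interval of -0.29 to 1.14, and of Xylt1, at 0.36 ± 0.23 with an interval of -0.18 to 0.89, both at an edgeR adjusted p of 0.967. Without CG mutant replicate 1 the difference was -0.00098 for Papss2 and 0.080 for Xylt1, and without CG mutant replicate 2 it was 0.76 and 0.60. For the mean of the mutant effects, 0 of 9 passed in edgeR, against 0% of genes, 1 of 9, Chst11, had an unadjusted p under 0.05, against 11.5%, and DESeq2 called Chst11 alone, against 1.71%.

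Between the lines, where 36.1% of all genes passed in mutants and 33.7% in wild types, several of the 9 genes passed. Papss2, Xylt1 and Chsy1 were lower in CT mutants than in CG mutants, and these and Slc26a2 were lower in CT wild types than in CG wild types. The largest difference was in Papss2, at 0.324-fold in mutants and 0.435-fold in wild types. In the edgeR fit on all 8 libraries, none of the 9 was called higher in the CT line, beside 17.9% of all genes in mutants and 17% in wild types. The lower counts, 3 of 9 in mutants and 4 of 9 in wild types, stand beside 18.2% and 16.8% of all genes called lower in CT. DESeq2 called 4 of 9 in mutants, against 32.3% of genes, and 5 of 9 in wild types, against 30.6%, and the additions were Slc26a2 in mutants and Has2 in wild types. Whether these shares exceed those of other groups of 9 genes was not tested. The median log2 fold change of the 9, CT over CG, was -0.35 in mutants and -0.25 in wild types, beside -0.01 and 0.00 over all genes. The mutant and wild type comparisons take their group means from different libraries, but their p-values share a spread estimated over all 8 libraries. Both also set the same pair of lines against each other. Line differences in wild types are differences between the 2 control groups.

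**Figure D3:**
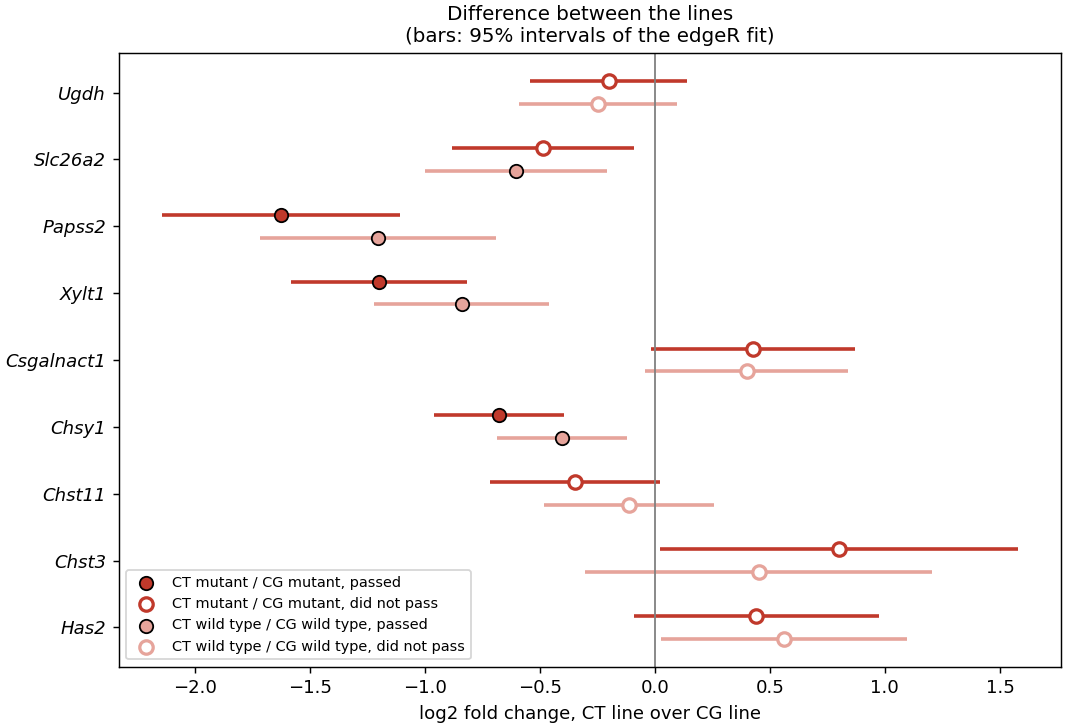
Line difference of each gene as log2 fold change of CT over CG (horizontal axis), in mutants (dark red) and in wild types (light red), with 95% intervals of the edgeR fit as bars and filled points for an adjusted p under 0.05. Papss2, Xylt1 and Chsy1 are filled in both comparisons, Slc26a2 in wild types only, and no filled point lies above 0.

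Papss2 lay between 151 and 185 CPM in all 4 CT libraries and between 375 and 651 CPM in all 4 CG libraries. The log2 fold change was -1.62 ± 0.22 in mutants (edgeR adjusted p = 0.00148) and -1.20 ± 0.22 in wild types (edgeR adjusted p = 0.00581). Xylt1 lay between 171 and 217 CPM in CT and between 346 and 496 CPM in CG. Its log2 fold change was -1.20 ± 0.17 in mutants (edgeR adjusted p = 0.00148) and -0.84 ± 0.16 in wild types (edgeR adjusted p = 0.00739). Both genes passed in both comparisons under all 17 alternatives, including each with 1 library left out. Without CG mutant replicate 1, the library highest for both, the mutant difference was -1.20 for Papss2 and -0.92 for Xylt1.

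Chsy1 lay between 132 and 166 CPM in CT and between 195 and 231 CPM in CG. Its log2 fold change was -0.68 ± 0.12 in mutants (edgeR adjusted p = 0.00455) and -0.40 ± 0.12 in wild types (edgeR adjusted p = 0.0364). It passed under all 17 alternatives in mutants and under 9 of 17 in wild types, where the call was lost without either CG wild type, either CT mutant or CT wild type replicate 2, and under the 3 fits on FPKM. Slc26a2 lay between 27.3 and 37.8 CPM in CT and between 41.7 and 50.2 CPM in CG. It was called in wild types, at -0.60 ± 0.17 (edgeR adjusted p = 0.0295, passed under 10 of 17 alternatives), and missed the threshold in mutants, at -0.48 ± 0.17 (edgeR adjusted p = 0.0579, passed under 4 of 17). The wild type call was lost without any 1 of the 4 wild type libraries and under the 3 fits on FPKM, and the mutant call was made without CG mutant replicate 2 or CT mutant replicate 2. The difference between the 2 Slc26a2 values is the difference of the mutant effects with its sign turned, and that did not pass. Papss2, Xylt1, Chsy1 and Slc26a2 were lower in all 4 CT libraries than in any CG library, as were 23.1% of all genes, and Csgalnact1 was higher in all 4, as were 23.7%.

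The other 5 genes did not pass in either line comparison, and 3 of them, Has2, Csgalnact1 and Chst3, had values above 0 in both. Has2 had a log2 fold change of 0.44 ± 0.23 in mutants (edgeR adjusted p = 0.170) and 0.56 ± 0.23 in wild types (edgeR adjusted p = 0.0964). DESeq2 called Has2 in wild types at an adjusted p of 0.0380, within a range of 0.0323 to 0.464 over its alternatives, and the authors' deposited table gives it a log2 ratio of 0.57 and a q-value of 0.0127 there. In mutants the authors' deposited table gives 0.45 with a q-value of 0.178. Csgalnact1 had 0.43 ± 0.19 in mutants (edgeR adjusted p = 0.116) and 0.40 ± 0.19 in wild types (edgeR adjusted p = 0.143). Chst3 had 0.80 ± 0.34 in mutants (edgeR adjusted p = 0.0985) and 0.45 ± 0.33 in wild types (edgeR adjusted p = 0.316). In both fits on filtered FPKM, Has2 and Csgalnact1 passed in mutants and Has2 passed in wild types. With the 2 groups alone, Has2 and Csgalnact1 passed in wild types. Chst3 and Chst11 passed in mutants without CG mutant replicate 2, Csgalnact1 without CT mutant replicate 1 and Has2 without CG mutant replicate 1. In wild types Has2 passed without either CG mutant or CT wild type replicate 2. Chst11 and Ugdh had the values nearest 0, from -0.35 to -0.11, and the sign of Chst11 in wild types and of Ugdh in mutants turned when FPKM were compared.

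The rest of the pathway gives the setting, with 62 further genes in 8 lists, of which 61 were tested and Chst13 was not. No listed gene passed for the mutant effect in CG or CT, for their mean or for their difference. Between the lines, 12 were higher and 10 lower in CT mutants than in CG mutants, and 15 were higher and 10 lower in CT wild types than in CG wild types. These are 36.1% of the 61 in mutants and 41% in wild types, beside 36.1% and 33.7% of all genes, so the listed genes as a whole were called at about the background share. Of those called in mutants, 81.8% were also called in wild types, against 71.7% over all genes, and of those called in wild types, 72.0% were also called in mutants, against 76.7%. All 18 genes called in both, 10 higher and 8 lower in CT, had the same direction in both, as did 99.8% of all genes called in both.

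Over all genes, 17.9% were called higher and 18.2% lower in CT in mutants, and 17% higher and 16.8% lower in wild types, and the counts in each list stand beside these shares, with no test of the difference. Among genes that modify chondroitin and dermatan, 4 of 7 tested were higher and 0 lower in CT in each comparison, with a median log2 fold change of 0.47 in mutants and 0.44 in wild types. Chst15, which adds a further sulfate to chondroitin 4-sulfate, had 17.9 and 15.4 CPM in CT and 4.40 and 3.78 CPM in CG among mutants. Among wild types it had 16.3 and 14.0 CPM in CT and 3.33 and 3.43 CPM in CG. The CT libraries were all above the CG libraries, and the log2 fold change was 2.03 ± 0.16 in mutants (edgeR adjusted p = 0.000264) and 2.16 ± 0.17 in wild types (edgeR adjusted p = 0.000217). Dsel, a relative of dermatan sulfate epimerase, was 1.21 ± 0.13 higher in mutants and 1.01 ± 0.13 higher in wild types on the log2 scale. Chst14, the dermatan 4-sulfotransferase, and Ust, a uronyl 2-sulfotransferase, were the others called higher in both.

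Of the other hyaluronan genes, 2 of 8 were higher and 1 lower in CT in each comparison. Cemip, which is needed for hyaluronan breakdown in human skin fibroblasts, was the gene called lower. Among mutants it had 62.9 and 37.7 CPM in CT and 243 and 349.9 CPM in CG. Among wild types it had 58.8 and 34.6 CPM in CT and 550.5 and 623 CPM in CG. All CT libraries were below all CG libraries, and the log2 fold change was -2.56 ± 0.32 in mutants (edgeR adjusted p = 0.00105) and -3.65 ± 0.34 in wild types (edgeR adjusted p = 0.000414). The genes called higher were Hyal2, a hyaluronidase, at 1.04 ± 0.14 in mutants and 0.82 ± 0.14 in wild types, and Cemip2, at 0.60 ± 0.11 and 0.53 ± 0.11.

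**Figure D4:**
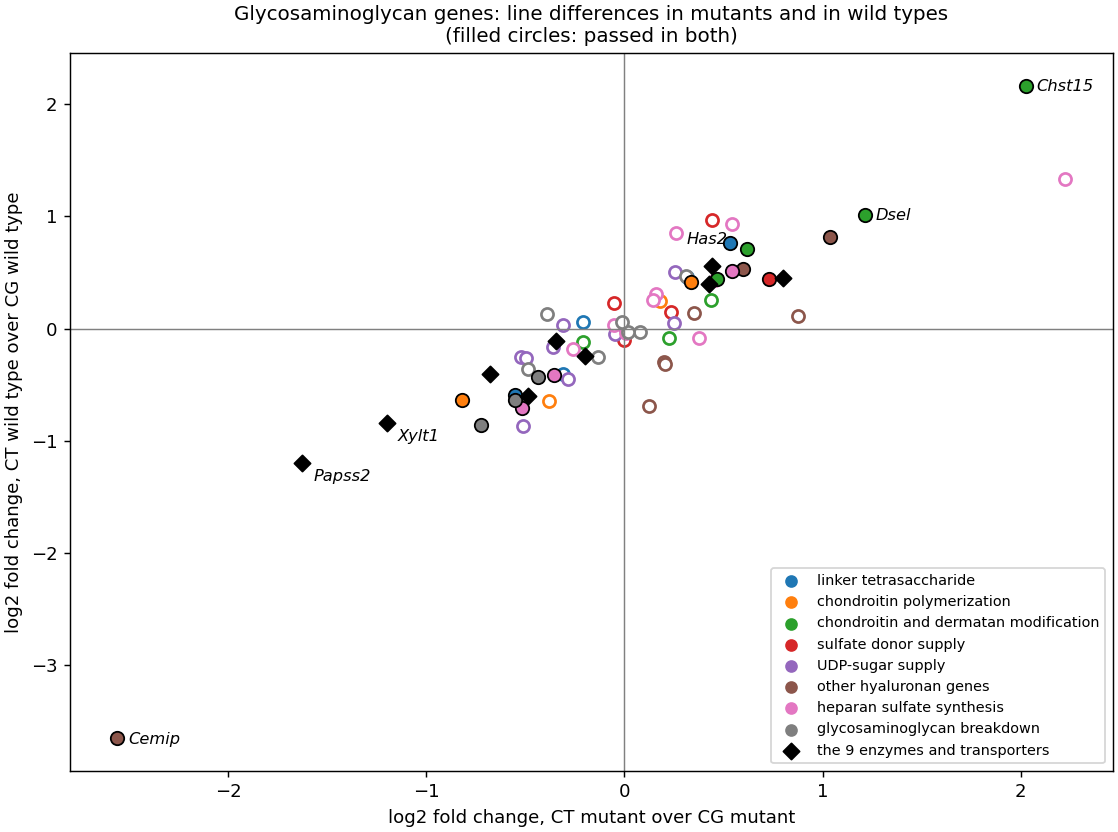
Line difference of 61 further glycosaminoglycan genes (circles, coloured by list) and of the 9 enzyme and transporter genes (black diamonds), as log2 fold change of CT over CG in mutants (horizontal axis) and in wild types (vertical axis). Filled circles passed in both comparisons, Chst15 is the highest in wild types at 2.16, Cemip is the lowest at -3.65, and Papss2 and Xylt1 are the lowest of the diamonds.

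The remaining lists are given with mutants first and wild types after them. In the linker, Xylt2, the other xylosyltransferase gene, was the gene of 5 called higher in mutants, at 0.53 ± 0.10, and again in wild types, at 0.76 ± 0.10, there with Fam20b, a xylose kinase. B3galt6, a galactosyltransferase of the linker, was lower in both. In chain polymerization, Chpf, the chondroitin polymerizing factor, was higher in both, and Csgalnact2, which shares the reaction of Csgalnact1, was lower in both, at -0.82 ± 0.12 and -0.63 ± 0.12. The synthase gene Chsy3 was also lower in wild types. In sulfate donor supply, Impad1, a phosphatase that clears the by-product of sulfation, was higher in both, at 0.73 ± 0.08 and 0.44 ± 0.08, and the anion transporter gene Slc26a1 was higher in wild types. In UDP-sugar supply, 0 of 9 were higher and 2, Gfpt2 and Gnpnat1, were lower in mutants, while in wild types Uxs1 was higher and Uap1 lower. In heparan sulfate synthesis, 3 of 13 were higher and 2 lower in each comparison. Ext1, a polymerase of that chain, was lower in both, at -0.51 ± 0.09 and -0.71 ± 0.09, as was Extl2, and Extl3 was higher in both. Hs2st1 and Hs3st1 were higher in mutants, and Hs6st2 and Hs3st3a1 in wild types. In glycosaminoglycan breakdown, 3 of 10 were lower and 0 higher in each comparison, beside the 18.2% and 16.8% of all genes called lower.

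The gene whose pattern over the 8 libraries was most like that of each of the 9 was found among 9194 other genes, or 9195 for Chst3, whose log2 CPM averaged 3 or more. Papss2 was most like Reln, with a Pearson r of 0.996, Has2 most like Styx, with 0.993, and Xylt1 most like Snai2, with 0.991. Chsy1 was most like Zfp956, with 0.988, Chst3 most like Tle3, with 0.981, and Slc26a2 most like Pou2af1, with 0.980. Csgalnact1 was most like Ppp3cb, with 0.976, and both Chst11 with Ucma and Ugdh with Pigk gave 0.971. Each value describes 8 libraries that fall into 2 lines and share depth and preparation within them, and high values are found for many genes.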

How the data were processed

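The authors deposited, for each gene in each library, an estimated count and a value in FPKM. Sequencing used DNBSEQ, per the labels. HISAT2 2.0.4 and mm9 are listed in the submitters' processing notes, and the counter was not given in the sources used here. Deposited estimated counts carry no normalization. Values were not whole in 2282 to 2518 genes of a library and were rounded. The authors' deposited comparisons give log2 ratios and q-values.

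The test was edgeR 4.0.16 in R 4.3.3 (quasi-likelihood F test), with 4 group means over 8 libraries, TMM factors, filterByExpr and 4 residual degrees of freedom. P-values were adjusted by Benjamini-Hochberg over 14359 genes. A standard error is the size of the log2 fold change over the square root of F. The script was tested on simulated data. Alternatives used RLE factors, DESeq2 1.42.0, no filter, limma 3.58.1 on log2 of deposited FPKM plus 1 or 0.1, the 2 groups alone, a replicate term, a term for detection of Y-linked Ddx3y, and each library left out. Of the listed pathway genes, values are given for up to 3 per direction and comparison with the smallest p, and for Hyal2 and Cemip2, and the others that passed are named, both chosen after their values were seen. Single genes of the breakdown list are not reported here. Members and lists were chosen with earlier results of these data known. Sequences came from RefSeq and GENCODE on GRCm38, another build than mm9, and no coordinates were converted.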

Additional observations from a re-analysis of the deposited data

How the results depend on the processing

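The number of the 9 genes called was the same under RLE factors, without the count filter, and with a replicate term (the replicate block), at 0 for the mutant effects, their mean and their difference, 3 for the line difference in mutants and 4 in wild types. The labels do not say what a replicate number marks, same-numbered deviations correlated at -0.09 in CG and 0.25 in CT, and over all genes the block called 3 in CG, against 1 without it. In CT the number coincided with Ddx3y, at 3512 and 3669 counts in replicate 1 and 30 and 10 in replicate 2. In CG, Ddx3y was not balanced between the groups, at 2231 and 2360 in mutants and 2 and 2511 in wild types. For the mean effect DESeq2 called 1 gene, Chst11. Limma on log2(FPKM + 1) and log2(FPKM + 0.1) called 5 in the mutant line difference, and limma without a filter called 2 in the wild types. With the 2 groups alone 6 were called in wild types, against 4. Leaving out each library gave 0 to 2 genes for the CG effect, 0 to 0 for the CT effect and for the difference of the effects, 0 to 1 for the mean, 3 to 6 for the mutant line difference and 2 to 5 for the wild type line difference. The 2 in wild types came without CG wild type replicate 1 or replicate 2, and the 6 in mutants without CG mutant replicate 2. A group left with 1 library is assumed to vary like the others. Over all genes the CG effect counted 1 call, against 213 with DESeq2 and 522 without CG mutant replicate 2.

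Over the 11719 genes kept by a filter on FPKM, the median line difference was 0.19 and 0.22 in mutants and 0.12 and 0.14 in wild types. The values are with 1 and with 0.1 added, and by counts the medians were -0.01 and 0.00. Without that filter, over 18501 genes and with 1 added, the median was 0.042 in mutants and 0.021 in wild types. Signs turned for 26 results, none of them past the threshold, with the largest main value 0.42 and the cause not tested. With FPKM these were Chst11 in the wild type line difference (0.012), Ugdh in the mutant line difference (0.024), Papss2 in CT (0.017), Csgalnact1 in CG (-0.0046 with 1 added and -0.0049 with 0.1 added) and Has2 in the difference of effects (-0.031 with 1 added and -0.033 with 0.1 added). With the Ddx3y term they were Slc26a2 in CG (0.13) and, in the difference of effects, Csgalnact1 (0.15), Slc26a2 (0.046) and Ugdh (0.023). Signs also turned when 1 library was left out, with the following ranges of log2 fold changes. For the difference of the mutant effects they were -0.055 to 0.49 for Chst11, -0.86 to 0.030 for Chst3, -0.30 to 0.30 for Csgalnact1, -0.24 to 0.42 for Has2, -0.00098 to 0.76 for Papss2, -0.33 to 0.14 for Slc26a2 and -0.24 to 0.13 for Ugdh. For the CT mutant effect they were -0.25 to 0.081 for Chsy1, -0.28 to 0.32 for Csgalnact1, -0.19 to 0.38 for Has2, -0.17 to 0.12 for Papss2 and -0.15 to 0.32 for Slc26a2. For the mean mutant effect they were -0.033 to 0.13 for Chsy1, -0.12 to 0.17 for Csgalnact1, -0.061 to 0.28 for Has2, -0.020 to 0.36 for Papss2, -0.080 to 0.15 for Slc26a2 and -0.16 to 0.098 for Xylt1. For the CG mutant effect they were -0.076 to 0.12 for Csgalnact1, -0.18 to 0.48 for Has2, -0.020 to 0.74 for Papss2, -0.14 to 0.13 for Slc26a2, -0.091 to 0.28 for Ugdh and -0.12 to 0.40 for Xylt1.

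Precision is limited by 2 libraries a group and 4 residual degrees of freedom. The widest 95% interval of a mutant effect, that of Chst3 in CG, ran from -1.47 to 0.10.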

Other observations

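The balance of the 2 chondroitin sulfotransferases was compared after their values were seen and is given without a test. The ratio of Chst11 to Chst3 in FPKM was 281 and 103 in CG mutants, against 58.7 and 89.9 in CG wild types. It was 72.6 and 76.5 in CT mutants, against 42.4 and 57.0 in CT wild types. Both mutant libraries were above both wild types in each line. Chst3 rests on few counts, and its own effects did not pass in either line.

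Papss2 relative to Chst11, also chosen after the values were seen, followed the line. The ratio in FPKM was 0.510 and 0.616 in CT mutants and 0.691 and 0.707 in CT wild types. It was 1.45 and 1.25 in CG mutants and 1.42 and 1.55 in CG wild types. No CT library reached the lowest CG library. Has2 relative to Chsy1 went the other way, at 0.552 and 0.664 in CT mutants, 0.582 and 0.494 in CT wild types, 0.354 and 0.209 in CG mutants and 0.283 and 0.274 in CG wild types.

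All 8 of the other hyaluronan genes were below 0 in CG mutants against CG wild types, at a median log2 fold change of -0.53. None of them, and none of the breakdown genes below, passed for a mutant effect in the fit on all 8 libraries. The median was -0.20 without CG mutant replicate 1 and -0.76 without CG mutant replicate 2, with all 8 below 0 in both, settings added after the data were seen. Both settings use the same 2 CG wild types. CG mutant replicate 1 also had the lowest fibroblast markers, at 362 CPM against 1094 CPM in CG mutant replicate 2, and their part in this was not tested. In the CT line 3 of 8 were above 0, at a median of -0.02. Of the 10 breakdown genes, 9 were above 0 in CG and 8 in CT, at medians of 0.17 and 0.16, beside 50.6% and 49.4% of all genes above 0. Without CG mutant replicate 1, 5 of the 10 were above 0 in CG, at a median of 0.02.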
